A study of Mus musculus with 4 samples.

Results

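Cxcl1, Cxcl2, Cxcl3 and Cxcl5 encode secreted chemokines that attract neutrophils, and Cxcr2 encodes the receptor through which neutrophils sense them. These 5 genes were taken by symbol from the 31053 genes of the deposited table and were followed in every cell class of 4 single-cell RNA libraries from mouse lungs that carried tumours. All 5 were detected: over the 4 libraries the cells kept held 1499 UMIs (unique molecular identifiers, 1 per captured transcript) of Cxcl1, 188083 of Cxcl2, 7164 of Cxcl3, 640 of Cxcl5 and 6716 of Cxcr2. The chemokines of this family share a short amino-acid motif ahead of their first cysteines, and mice lack the gene for IL-8, the best known human member. Epithelium, fibroblasts and myeloid cells make them when IL-1, IL-17, TNF or microbial products switch on NF-kB, and their transcripts are short-lived. Cxcr2 is a receptor coupled to inhibitory G proteins that draws neutrophils out of the bone marrow and into inflamed lung.

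The tumours were grown from KP cells, a mouse lung cancer line without p53, that were injected into a vein of B6 mice. The 4 libraries came from lungs with Asf1a knockout tumours under anti-PD-1 (KO anti-PD-1), Asf1a knockout tumours under isotype IgG (KO IgG), wild-type tumours under anti-PD-1 (WT anti-PD-1) and wild-type tumours under isotype IgG (WT IgG). Asf1a encodes a histone chaperone, and its deletion was present in the injected tumour cells only: host neutrophils, macrophages and fibroblasts were Asf1a wild type in all 4 groups. Anti-PD-1, an antibody against a brake receptor of T cells, was clone 29F.1A12 at 200 µg per mouse, given 3 times a week for 1 week. The whole perfused lung was digested and live cells were sorted, so normal lung cells are included. The labels do not say how many mice entered a library or how many knockout clones were used. With 1 library per group no difference has a replicate check: no p-value is given, the intervals cover counting error only, and cells of 1 library are not replicates.

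The 4 chemokine genes lie in 1 cluster on chromosome 5, and Cxcr2 lies on chromosome 1 beside Cxcr1. In GENCODE M21 (GRCm38), matched through the Ensembl identifiers of the deposited table, the genes run on the plus strand as Cxcl5 (chr5:90759360-90761624), Cxcl3 (chr5:90786103-90789600), Cxcl1 (chr5:90891241-90893115) and Cxcl2 (chr5:90903871-90905938). Cxcr2 lies on the plus strand at chr1:74153989-74161246. The 100 bases before the start of the gene are shown for the 4 genes that the RefSeq promoter table (GRCm38.p6) holds, to show what the promoters of Cxcl1, Cxcl2 and Cxcl3 share and the promoter of Cxcr2 does not. Capitals mark GGGAATTTCCC, of the kind NF-kB binds, and ATAAAAGG, of the TATA type. They are the runs of at least 8 bases that the windows of Cxcl1, Cxcl2 and Cxcl3 all hold, so their presence in these 3 is how they were found. They do not overlap each other.
Cxcl1: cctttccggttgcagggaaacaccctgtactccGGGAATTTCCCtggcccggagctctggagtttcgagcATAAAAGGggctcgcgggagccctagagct
Cxcl2: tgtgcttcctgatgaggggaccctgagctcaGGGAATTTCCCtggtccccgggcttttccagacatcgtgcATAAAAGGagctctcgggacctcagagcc
Cxcl3: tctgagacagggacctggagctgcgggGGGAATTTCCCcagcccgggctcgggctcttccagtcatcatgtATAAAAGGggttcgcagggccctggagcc
Cxcr2: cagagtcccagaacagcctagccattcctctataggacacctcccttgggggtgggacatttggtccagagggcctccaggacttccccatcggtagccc
The windows are chr5:90891141-90891240 (Cxcl1), chr5:90903771-90903870 (Cxcl2), chr5:90786001-90786100 (Cxcl3) and chr1:74153889-74153988 (Cxcr2), all on the plus strand. The first base of GGGAATTTCCC lay 71 bases before the RefSeq start in Cxcl1, 97 in Cxcl2 and 73 in Cxcl3. The first base of ATAAAAGG lay 34 bases before it in Cxcl1, 57 in Cxcl2 and 29 in Cxcl3. The RefSeq start was chr5:90891245 in Cxcl1, chr5:90903899 in Cxcl2 and chr5:90786101 in Cxcl3. In Cxcl2 it lay past the GENCODE start, and further from it than in Cxcl1 or Cxcl3, which lengthens the Cxcl2 distances. Of 32851 promoters of 300 bases, searched on both strands, 14 (0.0426%) held GGGAATTTCCC, 577 (1.76%) held ATAAAAGG and 3 (0.00913%) held both, which were these 3. A match of letters describes the sequence and is no evidence of binding in these cells.

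The libraries held 6094 barcodes and 16078095 UMIs (KO anti-PD-1), 6362 and 17578188 (KO IgG), 6683 and 22369904 (WT anti-PD-1), and 6074 and 22506737 (WT IgG). After filters on cells, 5601 in KO anti-PD-1, 5938 in KO IgG, 6160 in WT anti-PD-1 and 5638 in WT IgG remained. The median UMIs per cell were 1337 in KO anti-PD-1, 1226.5 in KO IgG, 1873.5 in WT anti-PD-1 and 2024.5 in WT IgG, so both KO libraries were shallower. No cell had identical counts in 2 libraries. Asf1a in tumour cells stood at 7.33 CPM in KO anti-PD-1 and 9.80 CPM in KO IgG, against 27.8 CPM in WT anti-PD-1 and 35.8 CPM in WT IgG (CPM, UMIs of a gene per 1000000 UMIs of that class in that library). The lower level in KO is the direction the labels give, with 13 UMIs left in KO anti-PD-1 and 27 in KO IgG, against 46 in WT anti-PD-1 and 64 in WT IgG. Cell classes were clustered without the 5 genes and named from marker lists that do not contain them, so the levels below did not define the classes. Each UMI counts 1 transcript end, so levels were not scaled by gene length.

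The 5 transcripts differed in the cell class that held most of their UMIs. Cxcl2, Cxcl3 and Cxcr2 were neutrophil transcripts, with 78.2%, 74.4% and 93.2% of their UMIs in neutrophils. Cxcl5 belonged mainly to tumour cells and fibroblasts, and tumour cells were the main single source of Cxcl1: tumour cells held 44.2% and fibroblasts 21.7% of the Cxcl1 UMIs, and tumour cells held 69.1% and fibroblasts 23.8% of the Cxcl5 UMIs. The fibroblast share of Cxcl1 came from both anti-PD-1 libraries: it was 29.4% in KO anti-PD-1, 7.84% in KO IgG, 31.8% in WT anti-PD-1 and 0.398% (1 UMI) in WT IgG. Neutrophils held 18.2% of the Cxcl1 UMIs in KO anti-PD-1, 31.4% in KO IgG, 7.75% in WT anti-PD-1 and 19.1% in WT IgG. Tumour cells numbered 122 in KO anti-PD-1, 209 in KO IgG, 102 in WT anti-PD-1 and 100 in WT IgG, and fibroblasts numbered 16 in KO anti-PD-1, 12 in KO IgG, 12 in WT anti-PD-1 and 11 in WT IgG. Neutrophils were 2109 cells (37.6%) in KO anti-PD-1, 2755 (46.4%) in KO IgG, 1673 (27.2%) in WT anti-PD-1 and 1848 (32.8%) in WT IgG. In WT anti-PD-1 fibroblasts held more of the Cxcl5 UMIs (49.3%) than tumour cells did (43.0%), whereas in KO IgG no fibroblast held any. Fewer cells of a class and less RNA per cell cannot be told apart in these shares, which is why levels per UMI of a class are used below.

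**Figure D1:**
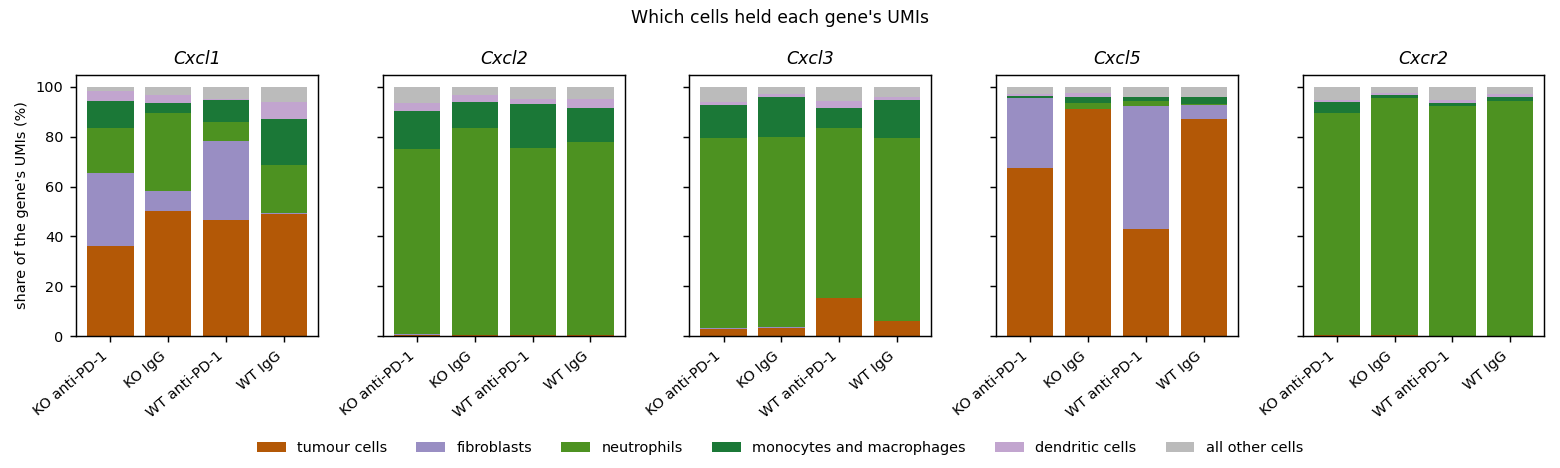
Share of the UMIs of each gene (percent, vertical axis) held by each cell class, as stacked bars for the KO anti-PD-1, KO IgG, WT anti-PD-1 and WT IgG libraries. Green neutrophil bars fill most of Cxcl2, Cxcl3 and Cxcr2 in every library, and brown tumour and lilac fibroblast bars fill most of Cxcl5.

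**Figure D2:**
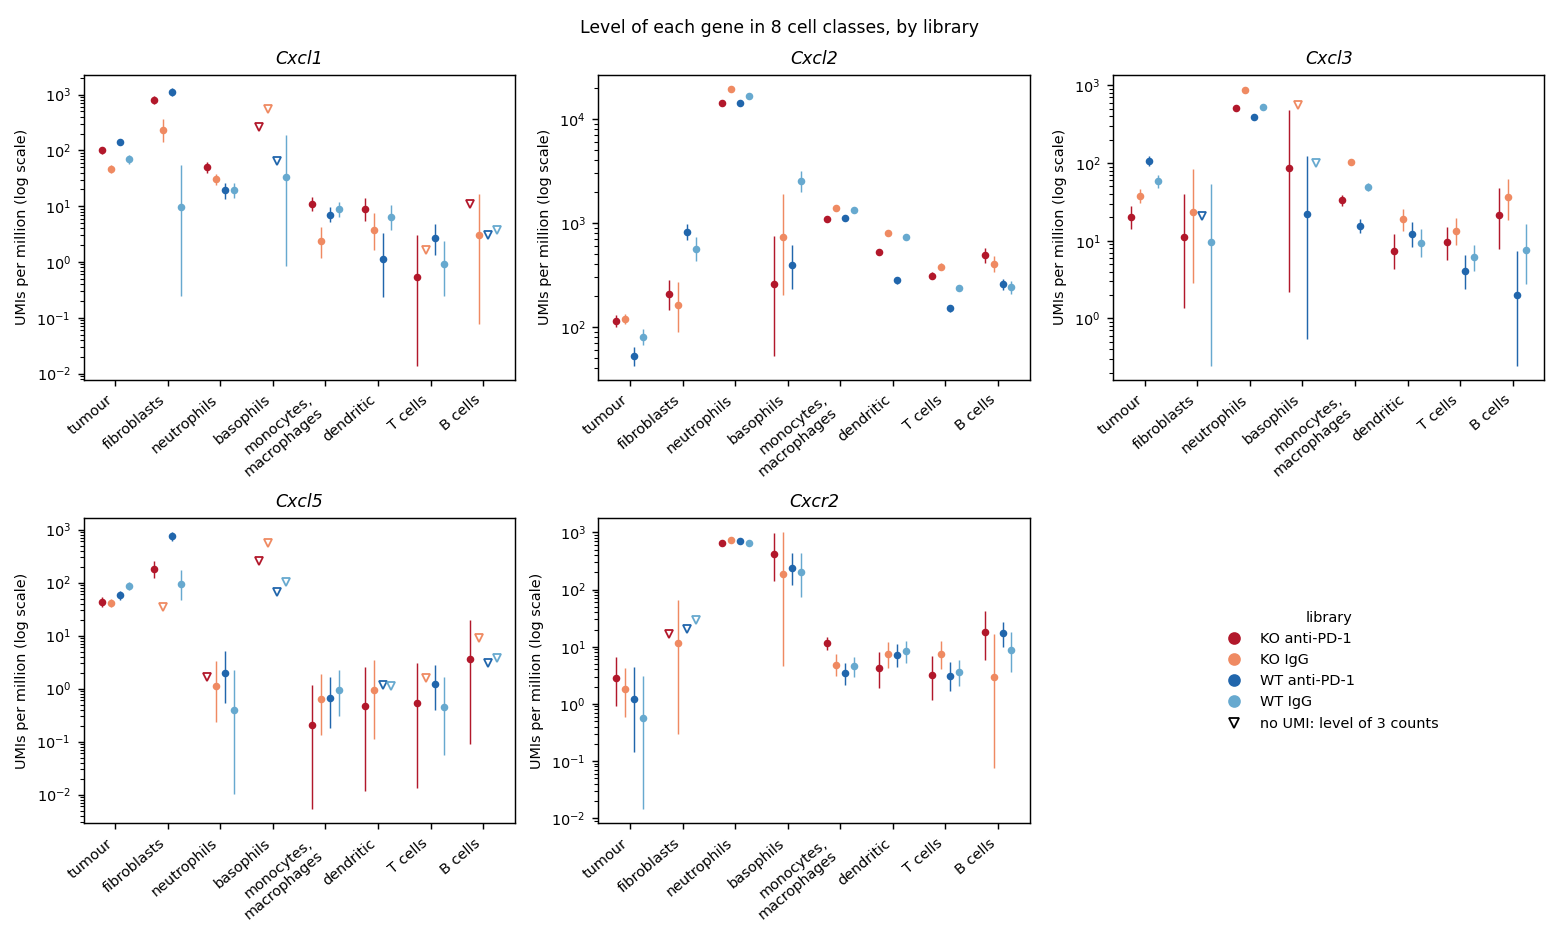
Level of each gene (CPM, log axis that differs between panels) in 8 cell classes, with the libraries in the order KO anti-PD-1, KO IgG, WT anti-PD-1, WT IgG; points are class sums, bars are exact Poisson 95% intervals, and open triangles stand at the level of 3 counts where no UMI was found. Cxcl2 in neutrophils lies at or above 14130 CPM in all 4 libraries, and tumour cells have the lowest Cxcl2 levels of the 8 classes in every library.

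In tumour cells Cxcl1 came from a minority of the cells. Its level was 99.8 CPM (177 UMIs) in KO anti-PD-1, 46.5 CPM (128 UMIs) in KO IgG, 141 CPM (234 UMIs) in WT anti-PD-1 and 68.7 CPM (123 UMIs) in WT IgG. Both anti-PD-1 libraries lay above both IgG libraries, an order whose share among all genes was not counted. A UMI was found in 31 of 122 cells in KO anti-PD-1, 35 of 209 in KO IgG, 20 of 102 in WT anti-PD-1 and 18 of 100 in WT IgG. The share of the UMIs in the 5 cells with the most was 59.3% in KO anti-PD-1, 53.1% in KO IgG, 83.8% in WT anti-PD-1 and 81.3% in WT IgG. A single WT anti-PD-1 cell held 113 of its 234 UMIs. In B cells, which should lack these genes and so show the level of free RNA in the droplets, Cxcl1 had 1 UMI in KO IgG and 0 in the other libraries, so the tumour-cell Cxcl1 stood above that background in every library.

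Cxcl5, which lung epithelium is known to release, stood at 43.4 CPM (77 UMIs) in KO anti-PD-1, 41.4 CPM (114 UMIs) in KO IgG, 57.9 CPM (96 UMIs) in WT anti-PD-1 and 86.6 CPM (155 UMIs) in WT IgG. Both KO libraries lay below both WT libraries, an order whose share among all genes was not counted. The KO anti-PD-1 over WT anti-PD-1 ratio had an interval of 0.548 to 1.02. A Cxcl5 UMI was found in 24 of 122 cells in KO anti-PD-1 and 40 of 209 in KO IgG. In the WT libraries it was 14 of 102 in WT anti-PD-1 and 18 of 100 in WT IgG. This share of cells was not lower in the KO libraries. The 5 cells with the most held 66.2% of the UMIs in KO anti-PD-1 and 43.9% in KO IgG. They held 83.3% in WT anti-PD-1 and 76.8% in WT IgG. The cell with the most held 15 in KO anti-PD-1, 14 in KO IgG, 32 in WT anti-PD-1 and 50 in WT IgG. B cells had 1 Cxcl5 UMI in all, in KO anti-PD-1.

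Cxcl3, whose coding sequence is close to that of Cxcl2, stood at 20.3 CPM (36 UMIs) in KO anti-PD-1, 37.8 CPM (104 UMIs) in KO IgG, 106 CPM (175 UMIs) in WT anti-PD-1 and 58.1 CPM (104 UMIs) in WT IgG. Here too both KO libraries lay below both WT libraries, and how many of all genes do so was not counted. The B-cell level of Cxcl3 was 21.7 CPM in KO anti-PD-1 and 36.1 CPM in KO IgG, about that of the tumour cells of those libraries, but 2.03 CPM in WT anti-PD-1 and 7.57 CPM in WT IgG. On this scale the tumour-cell level lay well above that of B cells in the WT libraries, and close to it in the KO libraries. Tumour cells are deeper, and per cell the KO counts differed: 36 Cxcl3 UMIs in 122 tumour cells against 6 in 152 B cells in KO anti-PD-1, and 104 in 209 tumour cells against 12 in 238 B cells in KO IgG. The tumour cell with the most Cxcl3 UMIs held 6 in KO anti-PD-1, 19 in KO IgG, 34 in WT anti-PD-1 and 27 in WT IgG. The part of free RNA in the KO values was not tested. Tumour cells held 5.64 Cxcl2 UMIs per Cxcl3 UMI in KO anti-PD-1, 3.13 in KO IgG, 0.497 in WT anti-PD-1 and 1.39 in WT IgG. In B cells that ratio was 22.7 in KO anti-PD-1, 11.2 in KO IgG, 127.5 in WT anti-PD-1 and 32.0 in WT IgG, on 2 to 12 Cxcl3 UMIs. No source used here states how reads that match both genes were counted, so their split between the 2 is uncertain.

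Cxcl2 in tumour cells was below the B-cell level in CPM in every library. Its level was 114 CPM in KO anti-PD-1, 118 CPM in KO IgG, 52.5 CPM in WT anti-PD-1 and 80.4 CPM in WT IgG, against a B-cell level of 491 CPM in KO anti-PD-1, 406 CPM in KO IgG, 259 CPM in WT anti-PD-1 and 242 CPM in WT IgG. The share of tumour cells with a Cxcl2 UMI was 58.2% in KO anti-PD-1, 66.99% in KO IgG, 51.96% in WT anti-PD-1 and 68.0% in WT IgG, at median depths between 9149.5 and 12165 UMIs. The share of B cells with one was 33.6% in KO anti-PD-1, 41.6% in KO IgG, 23.8% in WT anti-PD-1 and 36.1% in WT IgG, at median depths between 1039 and 1614.5 UMIs. The part of free RNA in these values was not tested. Cxcr2 UMIs in tumour cells numbered 5 in KO anti-PD-1, 5 in KO IgG, 2 in WT anti-PD-1 and 1 in WT IgG, each in a cell of its own.

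**Figure D3:**
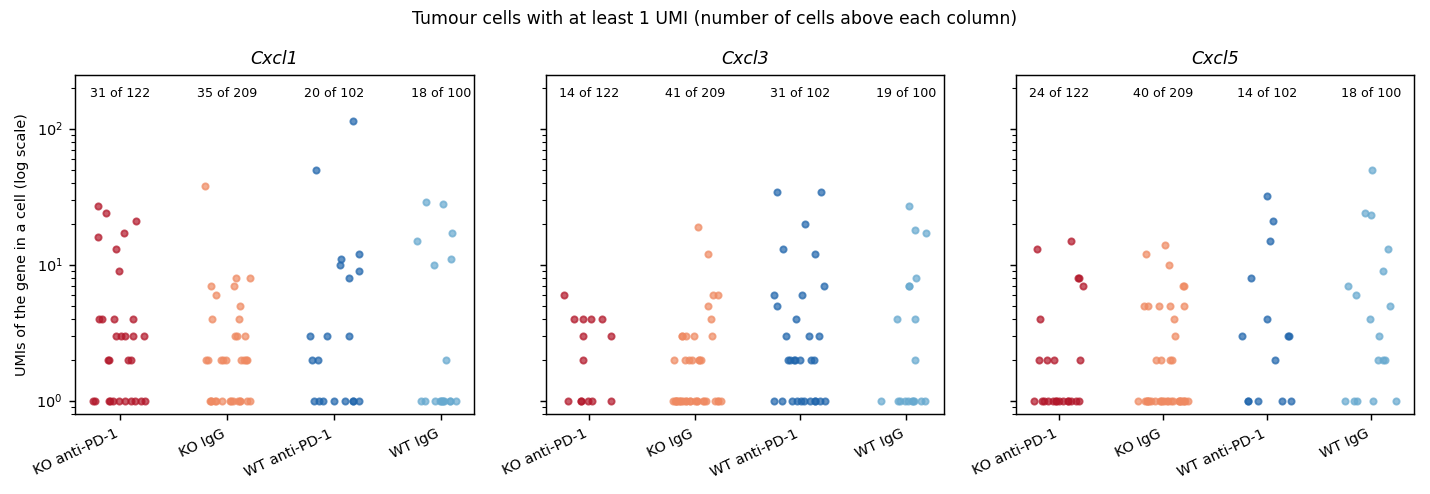
UMIs of Cxcl1, Cxcl3 and Cxcl5 in each tumour cell with at least 1 UMI (log axis), for KO anti-PD-1, KO IgG, WT anti-PD-1 and WT IgG; each point is a cell, spread sideways for display, and the number of such cells stands above each column. Most cells with a UMI hold few of them, and the highest point of the Cxcl1 panel is the WT anti-PD-1 cell with 113 UMIs.

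The 3 ligands overlapped in part among tumour cells. Of 533 tumour cells, 329 had no UMI of Cxcl1, Cxcl3 or Cxcl5, 121 had UMIs of 1 of them, 65 of 2 and 18 of all 3. Cxcl5 was seen in 45 of the 104 cells with Cxcl1 (43.3%) and in 51 of the 429 cells without it (11.9%), and the first share was the higher in each library. Cxcl3 was seen in 35 of the 104 cells with Cxcl1 (33.7%) and in 70 of the 429 without it (16.3%). Deeper cells show more of every gene, so these shares also carry depth. By sub-cluster, Cxcl1 in WT anti-PD-1 was highest in the cells led by Nts and Try5 (404 CPM, 7 cells) and in those led by Ccl7, Akr1c18 and Csf2 (377 CPM, 9 cells). Both levels rested on 1 cell, which held 50 of 63 UMIs in the Nts sub-cluster and 113 of 122 in the Ccl7 sub-cluster. In the Ccl7 sub-cluster it stood at 144 CPM in KO anti-PD-1, 70.4 CPM in KO IgG and 153 CPM in WT IgG. This sub-cluster had 21 of 122 cells in KO anti-PD-1, 63 of 209 in KO IgG, 9 of 102 in WT anti-PD-1 and 9 of 100 in WT IgG. Cxcl5 was highest in the cells led by Lypd8 and Tm4sf4 in KO anti-PD-1 (77.5 CPM), and stood there at 103 CPM in WT anti-PD-1 and 126 CPM in WT IgG. In the Nts sub-cluster it was higher in both WT libraries, at 205 CPM (32 UMIs, all in 1 cell) in WT anti-PD-1 and 158 CPM in WT IgG, against 17.4 CPM in KO anti-PD-1 and 40.4 CPM in KO IgG. Cells of the Lypd8 sub-cluster numbered 18 in KO anti-PD-1, 1 in KO IgG, 17 in WT anti-PD-1 and 18 in WT IgG.

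The comparison of KO IgG with WT IgG asks what Asf1a loss does without anti-PD-1, and summed over all tumour cells Cxcl1, Cxcl3 and Cxcl5 were lower in KO IgG. The KO IgG over WT IgG ratio was 0.478 (95% interval 0.372 to 0.613) for Cxcl5, 0.650 (0.490 to 0.861) for Cxcl3 and 0.676 (0.524 to 0.873) for Cxcl1. Cxcl2, below the B-cell CPM in both, had a ratio of 1.47 (1.20 to 1.80). The direction was not the same in all sub-clusters. In the Ccl7 sub-cluster the ratio was 12.4 (2.14 to 501) for Cxcl5, with 51 UMIs in KO IgG and 1 in WT IgG, and 2.93 (0.727 to 25.6) for Cxcl3, but 0.461 (0.301 to 0.715) for Cxcl1. In the Nts sub-cluster it was 0.255 (0.143 to 0.439) for Cxcl5, 0.639 (0.361 to 1.12) for Cxcl3 and 0.412 (0.244 to 0.682) for Cxcl1. The Lypd8 sub-cluster, with 1 cell in KO IgG and 18 in WT IgG, held 0 of the 114 Cxcl5 UMIs of KO IgG and 83 of the 155 of WT IgG. The part of this difference in makeup in the lower class total was not tested. Of the 4 genes with at least 20 UMIs over both libraries, 1 (Cxcl5) was at least 2-fold lower and 0 were 2-fold higher, in a comparison where 6.27% of 9374 genes were 2-fold lower and 6.11% were 2-fold higher. The median log2 ratio was -0.59 for the 4 genes and 0.06 for all 9374. Without the tumour cell that held the most Cxcl5 in each library, the log2 ratio of Cxcl5 was -0.71 in place of -1.06, under 2-fold.

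Under anti-PD-1 the KO tumour cells differed from WT tumour cells most in Cxcl3. The KO anti-PD-1 over WT anti-PD-1 ratio was 0.192 (0.130 to 0.276) for Cxcl3, 0.707 (0.578 to 0.863) for Cxcl1 and 0.750 (0.548 to 1.02) for Cxcl5, whose interval includes 1. Cxcl2 had a ratio of 2.18 (1.69 to 2.84), with both levels under those of B cells. Of 4 genes counted, 1 (Cxcl2) was 2-fold higher and 1 (Cxcl3) was 2-fold lower, in a comparison where 4.88% of 8684 genes were 2-fold higher and 6.6% were 2-fold lower. The Cxcl3 log2 ratio lay between -2.42 and -1.83 in all 11 alternatives that gave a value, and in KO anti-PD-1 the CPM was close to that of B cells. Without the cell with the most Cxcl1 in each library, the Cxcl1 log2 ratio was 0.14 in place of -0.50, and as a mean over cells it was 0.47.

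Summed Cxcl1 in tumour cells was higher in the anti-PD-1 library than in the IgG library of each genotype. With a mitochondrial limit of 5% neither log2 ratio passed 2-fold (0.74 for the WT pair and 0.98 for the KO pair). The ratio was 2.06 (1.64 to 2.58) for WT anti-PD-1 over WT IgG and 2.15 (1.70 to 2.72) for KO anti-PD-1 over KO IgG. In the WT pair the share of cells with a Cxcl1 UMI was 20 of 102 in WT anti-PD-1 and 18 of 100 in WT IgG, and the ratio rested on single cells: its log2 value was 1.04, 0.58 without the cell with the most UMIs in each library and -0.43 as a mean over cells. In the KO pair the share was 31 of 122 in KO anti-PD-1 and 35 of 209 in KO IgG. The log2 ratio of the KO pair was 1.10, 1.41 without the cell with the most UMIs in each library and 1.18 as a mean over cells. With each cell thinned to 500 UMIs it was -2.22, the opposite sign, on few UMIs. Cxcl3 differed in opposite directions, with a ratio of 1.82 (1.42 to 2.34) for WT anti-PD-1 over WT IgG and 0.538 (0.357 to 0.792) for KO anti-PD-1 over KO IgG. Its log2 ratio kept its sign in 11 of 12 alternatives in the WT pair and in 11 of 11 in the KO pair. Cxcl5 had a ratio of 0.669 (0.513 to 0.868) for WT anti-PD-1 over WT IgG and 1.05 (0.775 to 1.41) for KO anti-PD-1 over KO IgG. Cxcl2, below the B-cell CPM, had 0.652 (0.494 to 0.857) in the WT pair and 0.967 (0.808 to 1.16) in the KO pair. In each pair 1 of 4 genes, Cxcl1, was 2-fold higher and 0 were 2-fold lower. In the WT pair 2.25% of 8680 genes were 2-fold higher and 2.67% lower, and in the KO pair 3.72% of 9367 genes were 2-fold higher and 6.1% lower. In the KO pair the median log2 ratio of all genes was itself -0.13.

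Of the 10 tumour epithelial markers, Cldn7 was at 0 in all 4 libraries, and Epcam and Cldn4 were also at 0 in WT anti-PD-1. The summed level of the list was 10510 CPM in KO anti-PD-1, 7199 CPM in KO IgG, 7100 CPM in WT anti-PD-1 and 9755 CPM in WT IgG. The 12 macrophage markers summed to 5085 CPM in KO anti-PD-1, 4648 CPM in KO IgG, 3019 CPM in WT anti-PD-1 and 3665 CPM in WT IgG in tumour cells. The 12 neutrophil markers summed to 586 CPM in KO anti-PD-1, 530 CPM in KO IgG, 335 CPM in WT anti-PD-1 and 490 CPM in WT IgG. Both lists were highest in KO anti-PD-1 and lowest in WT anti-PD-1, the library in which Cxcl2 was lowest too. Their part in the tumour-cell values was not tested.

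Neutrophils carried the receptor and, at a far higher level, the ligand Cxcl2. Cxcr2 stood at 667 CPM (1202 UMIs) in KO anti-PD-1, 742 CPM (1977 UMIs) in KO IgG, 705 CPM (1428 UMIs) in WT anti-PD-1 and 660 CPM (1649 UMIs) in WT IgG. KO IgG was the highest and WT IgG the lowest of 4 close values. The share of neutrophils with a Cxcr2 UMI was 41.1% in KO anti-PD-1, 46.6% in KO IgG, 53.0% in WT anti-PD-1 and 52.4% in WT IgG. Their median depths, in UMIs, were 765 in KO anti-PD-1, 892 in KO IgG, 1126 in WT anti-PD-1 and 1253 in WT IgG. With each cell thinned to 500 UMIs the shares were 29.5% in KO anti-PD-1, 30.3% in KO IgG, 30.4% in WT anti-PD-1 and 27.6% in WT IgG, so the raw order was not kept at equal depth. The share of B cells with a Cxcr2 UMI was 2.63% in KO anti-PD-1, 0.420% in KO IgG, 2.40% in WT anti-PD-1 and 1.73% in WT IgG.

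Cxcl2 stood at 14260 CPM (25700 UMIs) in KO anti-PD-1, 19440 CPM (51761 UMIs) in KO IgG, 14130 CPM (28636 UMIs) in WT anti-PD-1 and 16440 CPM (41083 UMIs) in WT IgG. The share of neutrophils with a Cxcl2 UMI was 92.0% in KO anti-PD-1, 92.4% in KO IgG, 89.1% in WT anti-PD-1 and 94.1% in WT IgG. Each anti-PD-1 library lay below the IgG library of its genotype, and KO IgG was the highest. The median neutrophil held 10680 CPM in KO anti-PD-1, 14690 CPM in KO IgG, 9740 CPM in WT anti-PD-1 and 13340 CPM in WT IgG. In all, 50% of the Cxcl2 UMIs of neutrophils lay in 1489 of the 8385 cells.

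Cxcl3 followed Cxcl2 at a lower level, with 506 CPM (912 UMIs) in KO anti-PD-1, 877 CPM (2335 UMIs) in KO IgG, 386 CPM (783 UMIs) in WT anti-PD-1 and 520 CPM (1300 UMIs) in WT IgG. It was more concentrated: 50% of its UMIs lay in 233 cells. The share of neutrophils with a Cxcl3 UMI was 15.5% in KO anti-PD-1, 21.0% in KO IgG, 14.3% in WT anti-PD-1 and 17.4% in WT IgG. After thinning it was 12.5% in KO anti-PD-1, 16.7% in KO IgG, 9.74% in WT anti-PD-1 and 11.96% in WT IgG. KO IgG was highest by level and by share. Cxcl1 was rare in neutrophils, with 49.4 CPM (89 UMIs in 42 cells) in KO anti-PD-1, 30.0 CPM (80 UMIs in 40 cells) in KO IgG, 19.2 CPM (39 UMIs in 24 cells) in WT anti-PD-1 and 19.2 CPM (48 UMIs in 24 cells) in WT IgG. Cxcl5 had at most 4 UMIs in the neutrophils of any library.

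Receptor and ligand transcripts were found in the same cells. Of thinned neutrophils with a Cxcr2 UMI, 87.8% of 2476 held a Cxcl2 UMI, against 87.3% of 5909 without one, a difference inside the counting intervals. Those with a Cxcl3 UMI held a Cxcl2 UMI in 96.5% of 1107 cells, against 86.1% of 7278 cells without Cxcl3.

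In host neutrophils, KO IgG was higher than WT IgG for all 4 transcripts, each by less than 2-fold. The KO IgG over WT IgG ratio was 1.69 (1.57 to 1.80) for Cxcl3, 1.56 (1.08 to 2.29) for Cxcl1, 1.18 (1.17 to 1.20) for Cxcl2 and 1.12 (1.05 to 1.20) for Cxcr2. Of the 4 genes counted 0 were 2-fold apart, where 1.47% of 8225 genes were 2-fold higher and 2.26% lower, and the median log2 ratio was 0.44 for the 4 genes and -0.08 for all genes. Under anti-PD-1, KO anti-PD-1 over WT anti-PD-1 was 2.57 (1.74 to 3.84) for Cxcl1 and 1.31 (1.19 to 1.44) for Cxcl3. The ratios of Cxcl2 (1.01, 0.992 to 1.03) and Cxcr2 (0.946, 0.876 to 1.02) had intervals that include 1. Cxcl1 was the 1 gene of 4 that was 2-fold higher, 0 were 2-fold lower, and 2.82% of 7650 genes were 2-fold higher and 2.82% lower. In cells with at least 1000 UMIs the Cxcl1 log2 ratio was 0.40 in place of 1.36.

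Cxcl2 and Cxcl3 in neutrophils were lower in the anti-PD-1 library than in the IgG library of each genotype. For Cxcl3 the ratio was 0.743 (0.679 to 0.812) for WT anti-PD-1 over WT IgG and 0.577 (0.534 to 0.623) for KO anti-PD-1 over KO IgG. For Cxcl2 it was 0.860 (0.847 to 0.873) in the WT pair and 0.733 (0.722 to 0.744) in the KO pair. Cxcr2 had 1.07 (0.994 to 1.15) in the WT pair and 0.898 (0.835 to 0.965) in the KO pair, and Cxcl1 had 1.00 (0.639 to 1.56) in the WT pair and 1.64 (1.20 to 2.25) in the KO pair. Of the 4 genes 0 were 2-fold apart in either pair, where 1.23% of 7989 genes were 2-fold higher and 1.54% lower (WT pair), and 3.28% of 7933 genes were 2-fold higher and 2.28% lower (KO pair). The 4 comparisons share libraries: a high value in KO IgG enters both the ratio to WT IgG and the ratio of KO anti-PD-1 to KO IgG.

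**Figure D4:**
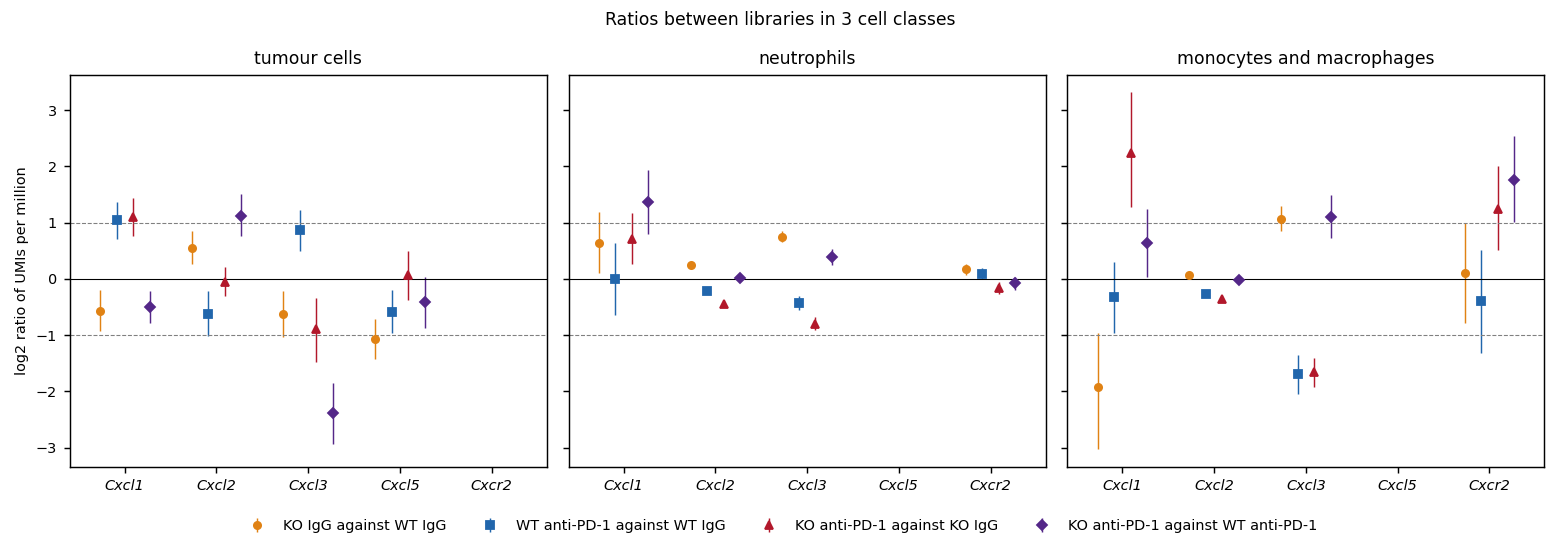
log2 ratio of CPM (vertical axis) for each gene in tumour cells, neutrophils, and monocytes and macrophages, for the 4 pairs of libraries; bars are 95% intervals for counting error and dashed lines mark 2-fold. Pairs with fewer than 20 UMIs of the gene are not drawn; neutrophil values lie within 2-fold except Cxcl1 in KO anti-PD-1 against WT anti-PD-1.

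Neutrophils were not uniform, and Cxcr2, Cxcl2 and Cxcl3 each differed between sub-clusters. The sub-cluster with Retnlg among its leading genes (3720 cells) had Cxcr2 at 846 CPM in KO anti-PD-1, 915 CPM in KO IgG, 896 CPM in WT anti-PD-1 and 870 CPM in WT IgG. The sub-cluster led by Adamdec1 and Siglecf (2260 cells), a gene known from tumour-associated neutrophils of mice, had Cxcr2 at 403 CPM in KO anti-PD-1, 438 CPM in KO IgG, 471 CPM in WT anti-PD-1 and 359 CPM in WT IgG. The 2 ranges did not overlap, and the share of all genes of which this holds was not counted. The sub-cluster led by Il23a, Gbp2 and Cxcl10 (1962 cells) had Cxcr2 at 703 CPM in KO anti-PD-1, 849 CPM in KO IgG, 810 CPM in WT anti-PD-1 and 856 CPM in WT IgG, close to the Retnlg value in WT IgG.

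Cxcl2 was highest in the sub-cluster led by Il23a, Gbp2 and Cxcl10 in every library. There Cxcl2 stood at 25710 CPM in KO anti-PD-1, 32020 CPM in KO IgG, 22810 CPM in WT anti-PD-1 and 23750 CPM in WT IgG. In the Retnlg sub-cluster it stood at 12470 CPM in KO anti-PD-1, 16650 CPM in KO IgG, 10060 CPM in WT anti-PD-1 and 13010 CPM in WT IgG. The Siglecf sub-cluster had 12220 CPM in KO anti-PD-1, 14340 CPM in KO IgG, 12130 CPM in WT anti-PD-1 and 13630 CPM in WT IgG, so KO IgG was highest in all 3. The smaller sub-cluster led by P2rx7 and Ifit1 (318 cells) had 17030 CPM in KO anti-PD-1, 18310 CPM in KO IgG, 17230 CPM in WT anti-PD-1 and 18270 CPM in WT IgG, a narrow range. The sub-cluster led by Camp and Ngp, granule genes of immature neutrophils (125 cells), had 5042 CPM in KO anti-PD-1, 16600 CPM in KO IgG, 5678 CPM in WT anti-PD-1 and 9002 CPM in WT IgG. Cxcl3 in the Il23a sub-cluster stood at 1234 CPM in KO anti-PD-1, 2246 CPM in KO IgG, 768 CPM in WT anti-PD-1 and 1017 CPM in WT IgG, against 274 CPM in KO anti-PD-1, 246 CPM in KO IgG, 193 CPM in WT anti-PD-1 and 164 CPM in WT IgG in the Siglecf sub-cluster. The P2rx7 sub-cluster had Cxcl3 at 1273 CPM in KO anti-PD-1, 864 CPM in KO IgG, 1111 CPM in WT anti-PD-1 and 1391 CPM in WT IgG, so it was the highest of these in all libraries but KO IgG.

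The direction within sub-clusters was not uniform. KO IgG over WT IgG for Cxcl3 had a log2 ratio of 1.14 (1.01 to 1.28) in the Il23a sub-cluster, 0.89 (0.68 to 1.11) in the Retnlg sub-cluster and 0.59 (0.25 to 0.93) in the Siglecf sub-cluster, but -0.69 (-1.04 to -0.34) in the P2rx7 sub-cluster. KO anti-PD-1 over KO IgG for Cxcl3 was -0.86 (-1.04 to -0.69) in the Il23a sub-cluster and -0.49 (-0.68 to -0.31) in the Retnlg sub-cluster, against 0.16 (-0.18 to 0.50) in the Siglecf sub-cluster and 0.56 (0.00 to 1.09) in the P2rx7 sub-cluster. It was -3.67 (-5.03 to -2.57) in the Camp sub-cluster, which had 39 cells in KO anti-PD-1 and 49 in KO IgG. Cxcl1 in the Il23a sub-cluster stood at 138 CPM (40 UMIs in 15 cells) in KO anti-PD-1, 36.8 CPM in KO IgG, 40.05 CPM in WT anti-PD-1 and 33.0 CPM in WT IgG. Sub-cluster shares differed between libraries: as a share of neutrophils the Retnlg sub-cluster made up 54.2% in KO anti-PD-1, 46.6% in KO IgG, 39.9% in WT anti-PD-1 and 33.8% in WT IgG. The Il23a sub-cluster made up 16.8% in KO anti-PD-1, 22.2% in KO IgG, 27.1% in WT anti-PD-1 and 29.2% in WT IgG.

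**Figure D5:**
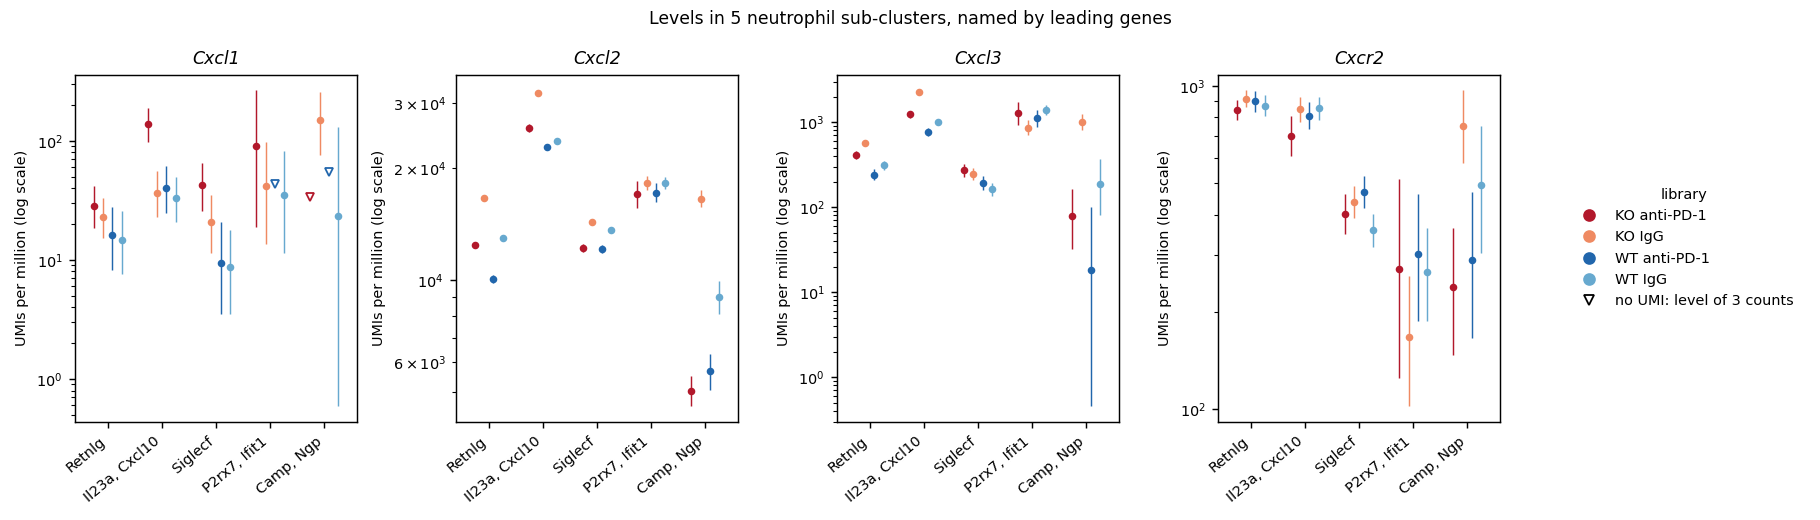
Level of Cxcl1, Cxcl2, Cxcl3 and Cxcr2 (CPM, log axis that differs between panels) in 5 neutrophil sub-clusters, with libraries in the order KO anti-PD-1, KO IgG, WT anti-PD-1, WT IgG; bars are exact Poisson 95% intervals and open triangles stand at the level of 3 counts where no UMI was found. The Il23a and Cxcl10 sub-cluster has the highest Cxcl2 in every library, while Cxcr2 is lower in the Siglecf sub-cluster than in the Retnlg sub-cluster in every library.

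All 12 neutrophil markers were found in neutrophils of every library, with a summed level between 125600 CPM (WT IgG) and 138000 CPM (KO anti-PD-1). The 14 T-cell markers summed there to 483 CPM in KO anti-PD-1, 174 CPM in KO IgG, 321 CPM in WT anti-PD-1 and 263 CPM in WT IgG. The 12 macrophage markers summed to 1343 CPM in KO anti-PD-1, 1254 CPM in KO IgG, 1073 CPM in WT anti-PD-1 and 1077 CPM in WT IgG. Both lists were highest in the neutrophils with the most Cxcl1, those of KO anti-PD-1. Their part in the neutrophil values was not tested.

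Monocytes and macrophages were the second source of Cxcl2 and Cxcl3, with 13.7% and 14.1% of all UMIs. Cxcl2 stood at 1095 CPM in KO anti-PD-1, 1406 CPM in KO IgG, 1107 CPM in WT anti-PD-1 and 1339 CPM in WT IgG, above the B cells of the same library throughout. Each anti-PD-1 library again lay below the IgG library of its genotype. The part of free RNA in these levels was not tested.

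Cxcl3 varied more in this class, with 33.1 CPM (160 UMIs) in KO anti-PD-1, 105 CPM (493 UMIs) in KO IgG, 15.4 CPM (94 UMIs) in WT anti-PD-1 and 49.7 CPM (264 UMIs) in WT IgG. KO lay above WT and IgG above anti-PD-1 in each pairing, and the share of all genes in such an order was not counted. Its ratio was 2.10 (1.81 to 2.45) for KO IgG over WT IgG and 2.15 (1.65 to 2.80) for KO anti-PD-1 over WT anti-PD-1. The ratio was 0.310 (0.242 to 0.393) for WT anti-PD-1 over WT IgG and 0.316 (0.263 to 0.378) for KO anti-PD-1 over KO IgG. The cell with the most Cxcl3 UMIs held 36 in KO anti-PD-1, 127 in KO IgG, 17 in WT anti-PD-1 and 83 in WT IgG. The macrophage cluster led by Arg1 and Ccl24 had the highest Cxcl3 in both IgG libraries, at 60.3 CPM in KO anti-PD-1, 247 CPM in KO IgG, 17.2 CPM in WT anti-PD-1 and 108 CPM in WT IgG. With the B-cell level subtracted, the log2 ratio of KO anti-PD-1 to WT anti-PD-1 was -0.23 in place of 1.10. That B-cell level rested on 6 UMIs in KO anti-PD-1 and 2 in WT anti-PD-1. B cells were shallower than this class, with median UMIs of 1380 against 4277 in KO anti-PD-1 and 1498.5 against 6062 in WT anti-PD-1.

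Cxcl1 in monocytes and macrophages was low, at 10.95 CPM (53 UMIs) in KO anti-PD-1, 2.34 CPM (11 UMIs) in KO IgG, 7.05 CPM (43 UMIs) in WT anti-PD-1 and 8.85 CPM (47 UMIs) in WT IgG. KO IgG lay below the other 3 libraries. Its ratio was 0.264 (0.123 to 0.516) for KO IgG over WT IgG and 4.69 (2.42 to 9.96) for KO anti-PD-1 over KO IgG, and at most 17 cells of any library held a UMI. Cxcr2 stood at 11.6 CPM in KO anti-PD-1, 4.88 CPM in KO IgG, 3.44 CPM in WT anti-PD-1 and 4.52 CPM in WT IgG. The B-cell level was 18.04 CPM in KO anti-PD-1, 3.01 CPM in KO IgG, 17.2 CPM in WT anti-PD-1 and 8.83 CPM in WT IgG, so Cxcr2 in this class was below that level or within 2 CPM of it, and no difference is read from it.

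Counted by the 2-fold rule, monocytes and macrophages had 1 gene higher (Cxcl3) and 1 lower (Cxcl1) in KO IgG against WT IgG, where 1.39% of 10006 genes were 2-fold higher and 1.65% lower. They had 0 higher and 1 lower (Cxcl3) in WT anti-PD-1 against WT IgG, where 1.28% of 10124 genes were 2-fold higher and 1.2% lower. KO anti-PD-1 against KO IgG gave 2 higher (Cxcl1 and Cxcr2) and 1 lower (Cxcl3), where 1.91% of 9932 genes were 2-fold higher and 2.8% lower. KO anti-PD-1 against WT anti-PD-1 gave 2 higher (Cxcl3 and Cxcr2) and 0 lower, where 1.66% of 10089 genes were 2-fold higher and 2.27% lower. The 12 neutrophil markers summed to 3290 CPM in KO anti-PD-1, 2620 CPM in KO IgG, 2095 CPM in WT anti-PD-1 and 2104 CPM in WT IgG in this class, the order of libraries that Cxcr2 had. Their part in the values was not tested.

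Fibroblasts were few, but their Cxcl1 and Cxcl5 levels were the highest of any class in KO anti-PD-1 and WT anti-PD-1. Cxcl1 stood at 803 CPM (144 UMIs in 4 cells) in KO anti-PD-1, 233 CPM (20 UMIs in 1 cell) in KO IgG, 1102 CPM (160 UMIs in 5 cells) in WT anti-PD-1 and 9.60 CPM (1 UMI) in WT IgG. Cxcl5 stood at 178 CPM (32 UMIs in 3 cells) in KO anti-PD-1, 0 UMIs in KO IgG, 758 CPM (110 UMIs in 6 cells) in WT anti-PD-1 and 96.0 CPM (10 UMIs in 2 cells) in WT IgG. Both anti-PD-1 libraries were the highest for both genes, over 16 cells in KO anti-PD-1 and 12 in WT anti-PD-1. How many of all genes show this order in fibroblasts was not counted. With no fibroblast UMI of Cxcl5 in KO IgG, a level up to 34.9 CPM (3 counts) is allowed. The class joined 30 cells of a fibroblast cluster with 21 cells of a sub-cluster of the epithelium that was named fibroblasts. The 7 fibroblast markers summed to between 16220 CPM (WT anti-PD-1) and 28690 CPM (KO anti-PD-1). The 10 tumour epithelial markers summed to 686 CPM in KO anti-PD-1 and 291 CPM in KO IgG. They summed to 1481 CPM in WT anti-PD-1 and 1527 CPM in WT IgG. Their part in the fibroblast values was not tested.

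Basophils were the other class with Cxcr2 above the B-cell level in every library. A Cxcr2 UMI was found in 3 of 8 in KO anti-PD-1, 1 of 5 in KO IgG, 7 of 24 in WT anti-PD-1 and 5 of 12 in WT IgG, with a level of 428 CPM in KO anti-PD-1, 185 CPM in KO IgG, 240 CPM in WT anti-PD-1 and 203 CPM in WT IgG. Dendritic cells had Cxcl2 at 530 CPM in KO anti-PD-1, 793 CPM in KO IgG, 280 CPM in WT anti-PD-1 and 731 CPM in WT IgG, close to the B-cell level of 259 CPM in WT anti-PD-1. In that library dendritic cells were deeper, with a median of 7341 UMIs against 1498.5 in B cells. Counted by cells, they held 734 Cxcl2 UMIs in 352 cells, against 255 in 542 B cells. T cells had 312 CPM in KO anti-PD-1, 381 CPM in KO IgG, 152 CPM in WT anti-PD-1 and 238 CPM in WT IgG, each under the B-cell value of its library.

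The wider pathway was read through 7 lists with 57 genes, of which 56 were in the table. Of the other chemokines in the lists, Cxcl15, a lung epithelial chemokine, stood at 1032 CPM in normal epithelium. Pf4, a platelet chemokine gene, stood at 155 CPM in monocytes and macrophages. Cxcr1, the sister receptor, stood at 9.23 CPM in neutrophils, against 1216 CPM for Csf3r, the receptor of G-CSF. Of the inducers, Il1b stood at 16610 CPM and Tnf at 144 CPM in neutrophils, and Il17a had 39 UMIs in T cells.

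In tumour cells 3 of the 29 counted pathway genes were 2-fold higher and 4 were 2-fold lower in KO IgG against WT IgG, where 6.11% of all genes were higher and 6.27% lower. Zfp36, whose product speeds the decay of chemokine transcripts, stood at 77.3 CPM in KO IgG and 267 CPM in WT IgG, and Egr1, an immediate-early transcription factor, at 86.0 CPM in KO IgG and 252 CPM in WT IgG. Il17rc, a subunit of the IL-17 receptor, stood at 10.5 CPM in KO IgG and 34.6 CPM in WT IgG, and Rac2, a GTPase of white blood cells, at 5.81 CPM in KO IgG and 15.6 CPM in WT IgG. These 4 were the genes that were lower. Csf2, which encodes GM-CSF, stood at 11.98 CPM (33 UMIs) in KO IgG and 3.35 CPM (6 UMIs) in WT IgG, and Il1r2 and Il1r1 were higher as well, with Il1r2 at 15.97 CPM in KO IgG and 7.82 CPM in WT IgG and Il1r1 at 10.2 CPM in KO IgG and 5.03 CPM in WT IgG. Csf2 alone of 24 was 2-fold higher in WT anti-PD-1 against WT IgG, at 15.1 CPM (25 UMIs) in WT anti-PD-1 and 3.35 CPM in WT IgG, and 0 were lower, where 2.25% of all genes were higher and 2.67% lower. In KO anti-PD-1 against KO IgG 4 of 32 were higher (Zfp36, Selplg, Rac2 and Itgb2) and 0 were lower, where 3.72% of all genes were higher and 6.1% lower. Zfp36 stood at 163 CPM in KO anti-PD-1 and 77.3 CPM in KO IgG. In KO anti-PD-1 against WT anti-PD-1 3 of 27 were higher (Il1r2, Rgs2 and Selplg) and 1 was lower, Icam1, the adhesion molecule that neutrophil integrins bind, at 11.3 CPM in KO anti-PD-1 and 34.4 CPM in WT anti-PD-1. In that comparison 4.88% of all genes were higher and 6.6% lower. Selplg, Rac2 and Itgb2 are genes of white blood cells.

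In neutrophils at most 1 pathway gene passed 2-fold in a comparison, a share read against that of all genes. Selp was 2-fold higher in KO IgG against WT IgG (20 UMIs in KO IgG, 7 in WT IgG), as 1 of 44 genes with 0 lower, where 1.47% of all genes were higher and 2.26% lower. Pf4 was 2-fold lower in WT anti-PD-1 against WT IgG (14 UMIs in WT anti-PD-1, 39 in WT IgG), as 1 of 42 with 0 higher, where 1.23% of all genes were higher and 1.54% lower. Of 44 genes 0 were 2-fold apart in KO anti-PD-1 against KO IgG, where 3.28% of all genes were higher and 2.28% lower. Cxcr1 was higher in KO anti-PD-1 against WT anti-PD-1 (18 UMIs in KO anti-PD-1, 10 in WT anti-PD-1), as 1 of 42 with 0 lower, where 2.82% of all genes were higher and 2.82% lower. Under that threshold, Il1a, an inducer, stood at 155 CPM in KO anti-PD-1 and 305 CPM in WT anti-PD-1, and Il1rap, a shared chain of the IL-1 receptors, at 188 CPM in KO anti-PD-1 and 104 CPM in WT anti-PD-1.

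In monocytes and macrophages, Tnf, an inducer of these chemokines, was 2-fold higher in KO IgG (19.5 CPM) against WT IgG (8.29 CPM), as 1 of 44 genes with 0 lower, where 1.39% of all genes were higher and 1.65% lower. It was 2-fold lower in KO anti-PD-1 (5.99 CPM) against KO IgG (19.5 CPM), as 1 of 43 with 0 higher, where 1.91% of all genes were higher and 2.8% lower. Pf4 was lower in WT anti-PD-1 (107 CPM) against WT IgG (255 CPM), and so was Ppbp, another platelet chemokine gene (10 UMIs in WT anti-PD-1, 23 in WT IgG), as 2 of 44 with 0 higher, where 1.28% of all genes were higher and 1.2% lower. Il1r2, a decoy receptor for IL-1, was higher in KO anti-PD-1 (213 CPM) against WT anti-PD-1 (81.0 CPM), and so was Fpr1, a receptor for formyl peptides (9.71 CPM in KO anti-PD-1, 3.11 CPM in WT anti-PD-1), as 2 of 43 with 0 lower, where 1.66% of all genes were higher and 2.27% lower.

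Likeness of pattern was measured as Pearson's r of log levels over 32 points (8 cell classes in 4 libraries) against 8536 genes. The classes were tumour cells, neutrophils, monocytes and macrophages, dendritic cells, T cells, B cells, NK cells and plasma cells. Each had at least 50 cells in every library, so fibroblasts and basophils did not enter. The points share libraries and free RNA, so r is a description. The genes most like Cxcl1 were Phlda1 (0.943), F3 (0.939), Cdc42ep2 (0.914), Hbegf (0.913) and Bnip3 (0.901). For Cxcl2 they were Mcl1 (0.975), Trem1 (0.973), Cd300lf (0.969), Pygl (0.969) and Il1rn (0.966). For Cxcl3 they were Igfbp6 (0.949), Egln3 (0.945), Ets2 (0.931), Ier3 (0.927) and Slc40a1 (0.914). For Cxcl5 they were Tcim (0.990), Onecut2 (0.989), Cyr61 (0.985), Lurap1l (0.985) and Baiap2l1 (0.985). For Cxcr2 they were AC110211.1 (0.989), 4732465J04Rik (0.985), Nlrp12 (0.983), Hdc (0.982) and P2ry13 (0.982). Among the 5 genes themselves r was 0.889 for Cxcl2 and Cxcr2, 0.833 for Cxcl3 and Cxcr2, 0.794 for Cxcl2 and Cxcl3, and 0.793 for Cxcl1 and Cxcl5. It was 0.130 for Cxcl1 and Cxcl2, whose promoters hold the same 2 runs.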

How the data were processed

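Live cells of whole lungs with KP tumours were profiled with a droplet 3′ kit, in 1 library per group. The deposited matrices hold whole-number UMI counts per gene and cell; the file headers name Cell Ranger 3.0.0, and the submitters' processing notes name bcl2fastq, Cell Ranger and the human build hg19, although every identifier in the files is a mouse one. The build used for counting was therefore not established, and coordinates are the match of Ensembl identifiers to GENCODE M21 (GRCm38).

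Every barcode in the files had at least 500 UMIs. Cells needed at least 200 detected genes, at most 10% mitochondrial UMIs and a Scrublet score of at most 0.25, which removed 76, 85, 125 and 107 cells as doublets in KO anti-PD-1, KO IgG, WT anti-PD-1 and WT IgG. Cells were clustered with scanpy 1.11.5 (2000 variable genes without the 5 genes, 30 components, Leiden resolution 1) and named from marker lists. Sub-clusters with at least 3 leading genes of another class were set aside (55 cells beside the tumour cells and 75 beside the neutrophils). A list of barcodes was given for 1 library only, so barcodes that libraries share were not counted.

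Class levels are the summed UMIs of a gene in a class of 1 library over all UMIs of that class, as CPM. Levels have exact Poisson, ratios exact conditional and shares exact Clopper-Pearson 95% intervals, which cover counting error only; cells differ from each other, so the true spread is wider. With 1 library per group there was no test. A gene was counted as 2-fold apart from 20 UMIs over both libraries. Named pathway genes are among the 8 largest log2 ratios per class and comparison at that minimum, and for likeness the 5 genes with the highest r. The ratio calculation was tested on simulated data.

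The 5 genes and the lists were chosen with earlier results of these data known. The rule that set sub-clusters aside, and the alternative that keeps them, were chosen after seeing the data, as were the genes named outside the stated rule for their class levels. Alternatives used edgeR 4.0.16 (TMM), DESeq2 1.42.0 (size factors), cell means, thinning to 500 UMIs and other filters. An item of the tumour line's genotype and a gene of the lists are not reported here.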

Additional observations from a re-analysis of the deposited data

Results flagged for a closer look

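For 2 results a pair of contrasts went in opposite directions, which was not tested as a difference because each group is 1 library. Cxcl3 in tumour cells had a log2 ratio of 0.86 for WT anti-PD-1 against WT IgG and -0.90 for KO anti-PD-1 against KO IgG. The Cxcl3 CPM in the tumour cells of both KO libraries was close to that of B cells, and the values were -0.24 as a mean over cells and -0.09 with a mitochondrial limit of 5% for the KO pair. For the WT pair 11 of 12 alternatives kept the sign, and the lowest log2 ratio was -0.84. Cxcl1 in monocytes and macrophages had a log2 ratio of -1.92 for KO IgG against WT IgG and 0.64 for KO anti-PD-1 against WT anti-PD-1. The -1.92 rests on 11 UMIs in KO IgG against 47 in WT IgG, and the 0.64 on 53 UMIs in KO anti-PD-1 against 43 in WT anti-PD-1.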

How the results depend on the processing

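No paired analysis was possible because each group has 1 library. Of 560 log2 ratios recomputed under an alternative, 481 moved by less than their counting interval, 74 moved further and 5 that were reported as at least 2-fold apart changed sign. Of 168 counts of genes 2-fold apart, 141 equalled the reported count or lay within a factor of 1.5 of it. The 27 that moved further are listed here. In tumour cells, KO IgG against WT IgG (reported 1) gave 2 with cell means, with cells thinned to 500 UMIs, with a mitochondrial limit of 5%, with B-cell levels subtracted, from 5 UMIs and at 1.5-fold, and 0 without the cell with the most UMIs of the gene and with the mixed sub-clusters. WT anti-PD-1 against WT IgG (reported 1) gave 2 with cell means, thinned and with B-cell levels subtracted, 0 with a mitochondrial limit of 5%, and 3 at 1.5-fold. KO anti-PD-1 against KO IgG (reported 1) gave 3 thinned, 0 with a mitochondrial limit of 5%, and 2 with B-cell levels subtracted and at 1.5-fold. KO anti-PD-1 against WT anti-PD-1 (reported 2) gave 1 with B-cell levels subtracted and with the mixed sub-clusters. In neutrophils, the reported 0 gave 2 at 1.5-fold both for KO anti-PD-1 against KO IgG and for KO IgG against WT IgG, and 1 from 5 UMIs in WT anti-PD-1 against WT IgG. KO anti-PD-1 against WT anti-PD-1 (reported 1) gave 0 in cells with at least 1000 UMIs. In monocytes and macrophages, WT anti-PD-1 against WT IgG (reported 1) gave 2 thinned, and KO anti-PD-1 against WT anti-PD-1 (reported 2) gave 1 thinned, 1 without removal of doublets and 0 with B-cell levels subtracted. The 5 changes of sign among ratios reported as at least 2-fold apart were as follows. In tumour cells Cxcl1 was -0.43 as a mean over cells for WT anti-PD-1 against WT IgG. It was -2.22 thinned for KO anti-PD-1 against KO IgG. Cxcl2 in tumour cells was -0.52 thinned for KO anti-PD-1 against WT anti-PD-1. In monocytes and macrophages Cxcl1 was 1.23 thinned for KO IgG against WT IgG. Cxcl3 in that class was -0.23 with B-cell levels subtracted for KO anti-PD-1 against WT anti-PD-1. Ratios under 2-fold also changed sign and are not among the 5. Cxcl2 in tumour cells, KO IgG against WT IgG, kept its sign in 8 of 11 alternatives, with a lowest log2 ratio of -0.76. The thinned values among the 5 rest on few UMIs. No change is read from thinned values in tumour cells or in monocytes and macrophages. The cause of these moves was not tested.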
